A study of Caenorhabditis elegans with 8 samples.

Results

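The superoxide dismutase and catalase genes of Caenorhabditis elegans, sod-1 to sod-5 and ctl-1 to ctl-3, were followed through embryos, young adults and aging adults of a glp-1 strain. The genes were taken by name from the array annotation, as every probe set annotated to one of these symbols or shared among catalase genes alone. They numbered 8 of 18217 annotated genes, on 7 of the 22548 probe sets. Each SOD gene and ctl-2 had a probe set of its own, and ctl-1 and ctl-3 shared 1, so these catalases could not be told apart. In the WBcel235 assembly ctl-2, ctl-1 and ctl-3 neighbour each other in this order. The probe sets of sod-1, ctl-2 and ctl-1/ctl-3 end in _s_at, which marks probes that match more than 1 transcript in the array's design.

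All groups were strain JK1107, genotype glp-1(q224) III, in which germ cells do not proliferate at 25°C, and were profiled as whole pools, each on its own Affymetrix C. elegans array. There were 3 arrays of mixed-stage embryos released with bleach and sodium hydroxide from parents kept at 15°C, 3 of young adults at day 1 and 2 of aging adults at day 6 of adulthood. Eggs for both adult groups came from parents at 15°C, hatched at 20°C in buffer and were fed OP50 bacteria at 25°C. The labels name separate replicate pools without saying whether these were grown independently, and the p-values measure the spread between them. The aging group is small because little RNA was recovered, and its animals no longer cleared bacteria from the gut well, per the study's methods. The embryos therefore differed from the adults in temperature as well as in stage, and stage and temperature cannot be told apart.

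Superoxide dismutases turn superoxide, a by-product of respiration, into oxygen and hydrogen peroxide. Catalases, heme enzymes, then split hydrogen peroxide into water and oxygen. In the nematode the SODs are divided by place: SOD-1 and SOD-5 are copper and zinc enzymes of the cytosol, SOD-2 and SOD-3 are manganese enzymes of mitochondria, and SOD-4 is a copper and zinc enzyme that is secreted or held at the cell surface. CTL-2 is the catalase of peroxisomes and CTL-1 a cytosolic one. The gene sod-3 is widely used as a reporter of DAF-16, the transcription factor restrained by insulin signalling, which acts in animals that lack a germ line.

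Deposited intensities were divided by the array median, and log2 values were fitted in limma over all 8 arrays, with p adjusted over 18794 features by the Benjamini-Hochberg method and the threshold set at an adjusted p of 0.05. A feature is 1 gene, a set of genes that share a probe set, or an unannotated probe set. Array medians were lowest in young adults (19.1 to 21.9), followed by aging adults (32.4 to 36.9) and embryos (56.2 to 64.2), while a noise level set from each array's negative values was 28.7 to 35, 29.5 to 33.8 and 24.4 to 27.7. The young adult medians thus lay within the noise, and the choice of scaling moved all genes: the median log2 fold change over all features was -0.02 for aging against young adults on the median scale and 0.73 when the arrays were left unscaled. For embryos against young adults these medians were -0.42 and 1.15, and for embryos against aging adults -0.47 and 0.35. Vitellogenin and adult collagen markers were above noise on every adult array (4 of 4) and on no embryo array (0 of 4). Of 6 embryo markers 5 were above noise on every embryo array while end-3 never was. In adults, 3 of the 6 were above noise on every young adult array and 4 on every aging array. Their summed levels were 8.63 to 12.8 array medians in young adults, 12.7 to 14.9 in aging adults and 47.7 to 68 in embryos. Germ line and oocyte markers were above noise in embryos (8 of 8) and on no young adult array (0 of 8). Of these, 2 were above noise on both aging arrays, with a summed level of 3.67 to 4.06 array medians against 1.07 to 1.99 in young adults and 67.9 to 90.2 in embryos, and their part in the results was not tested.

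The genes did not move as a block. From young to aging adults the mitochondrial genes sod-2 and sod-3 fell, 2.80-fold and 9.46-fold, and no SOD or catalase gene rose past the test. In that comparison 2 of the 7 features were called lower and 0 higher, where 4.41% of all features were called lower and 2.75% higher. Of the features that were higher, 1, sod-4, had an unadjusted p under 0.05. In embryos against young adults 5 of 7 were lower and 0 higher, where 30.6% of all features were lower and 21.5% higher, and no feature with a higher value had an unadjusted p under 0.05. Against aging adults, embryos had 5 of 7 lower and 1 higher, where 26.5% and 17.1% of all features were lower and higher. The 5 features lower in embryos were the same in both comparisons, which share the embryo arrays: sod-1, sod-3, sod-4, ctl-2 and ctl-1/ctl-3. All 7 features were kept in the fit and none was filtered on its level, and 5 of them were above noise on all 8 arrays. In whole animals, fewer cells of a type and less RNA per cell cannot be told apart in these values.

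**Figure D1:**
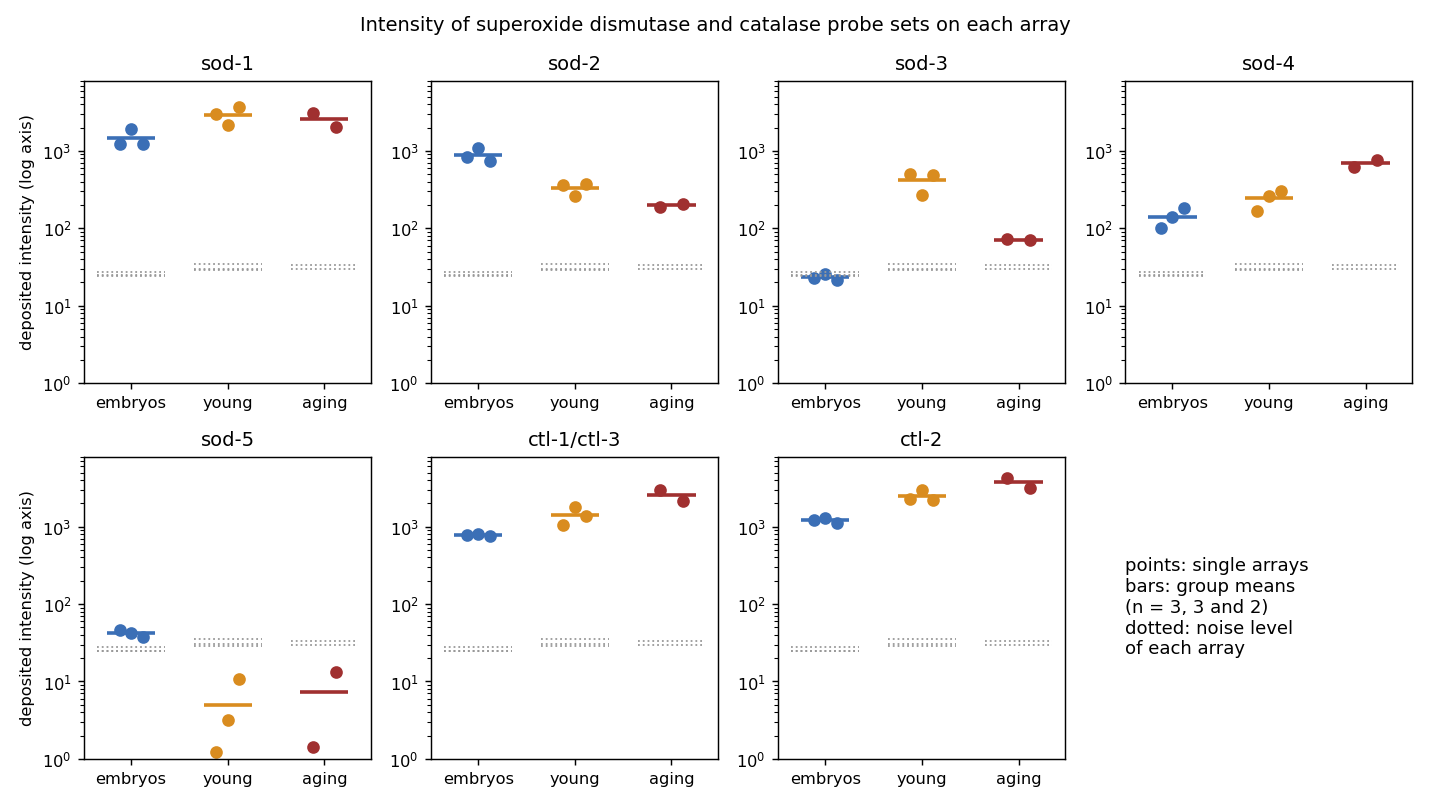
Deposited intensity (log axis, arbitrary units) of the 7 probe sets on each array, in embryos (3 arrays), young adults (3) and aging adults (2); points are arrays, bars are group means and dotted lines are the noise levels of the arrays. The sod-3 probe set lies at the noise in embryos and highest in young adults, while sod-5 is above the noise in embryos alone.

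The mitochondrial gene sod-3 (C08A9.1) changed most against young adults. Its intensity was 499, 272 and 483 on the young adult arrays, 72.5 and 70.7 on the aging adult arrays, and 23.2, 25.9 and 21.8 in embryos. The order was young adults, aging adults, embryos, with no overlap between groups, and all embryo arrays were below their noise level. In array medians the levels were 0.388 ± 0.035 (SD, n = 3) in embryos, 2.07 ± 0.150 (SD, n = 2) in aging adults and 20.4 ± 6.72 (SD, n = 3) in young adults. The fall in aging adults was -3.24 on the log2 scale (SE 0.31, limma adjusted p = 0.0026), a 9.46-fold lower level. It was past the test under every alternative setting run, 11 changes of the processing and each of the 8 arrays left out in turn. Young adults were at least 46.7-fold above embryos (limma adjusted p = 1.3e-05) and aging adults at least 4.93-fold (limma adjusted p = 0.000853), where embryos were set at their noise level.

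The other mitochondrial gene, sod-2 (F10D11.1), encodes the main manganese enzyme. Its intensity was 836, 1088 and 748 in embryos, 362, 265 and 379 in young adults, and 190.1 and 207 in aging adults. Both aging arrays lay below all others, and all arrays were above noise. In array medians the levels were 5.78 ± 0.877 (SD, n = 2) in aging adults, against 14.6 ± 2.51 (SD, n = 3) for embryos and 16.3 ± 3.26 (SD, n = 3) for young adults. The level in aging adults was 2.80-fold below that in young adults (log2 fold change -1.49, SE 0.23, limma adjusted p = 0.0139). This call was lost without rescaling (-0.74, adjusted p = 0.0715), with values raised to the noise level (-0.89, adjusted p = 0.07), with only the adult groups in the fit (adjusted p = 0.0555), and when either aging array was left out (adjusted p = 0.079 without the first and 0.0546 without the second). Embryos were 2.52-fold above aging adults (limma adjusted p = 0.00398), the only SOD or catalase difference past the test in that direction. Against young adults embryos overlapped in array medians (log2 fold change -0.16, 95% interval -0.65 to 0.34), and the direction turned to 1.41 without rescaling, where the test was passed (adjusted p = 0.00139), and to 0.45 after quantile normalization, where it was not (adjusted p = 0.0541).

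Division of an array by a constant cancels in the ratio of sod-2 to sod-3 on that array. Its log2 value was -0.46, -0.04 and -0.35 on the young adult arrays, 1.39 and 1.55 on the aging arrays, and 5.17, 5.39 and 5.1 on the embryo arrays. The groups were apart. Relative to sod-3, the sod-2 signal was 3.38-fold higher in aging than in young adults (2.99-fold after quantile normalization, in which the ratio is not fixed). In embryos, with sod-3 set at the noise level, it was at least 41.9-fold higher than in young adults. These signals come from different probes and do not give a ratio of transcripts. The exact two-sided permutation p was 0.2 for 3 arrays against 2 and 0.1 for 3 against 3, the smallest these designs allow, and 0.273 in each case when adjusted over the 15 ratio comparisons made, whose 5 pairs of genes were chosen with the values known.

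**Figure D2:**
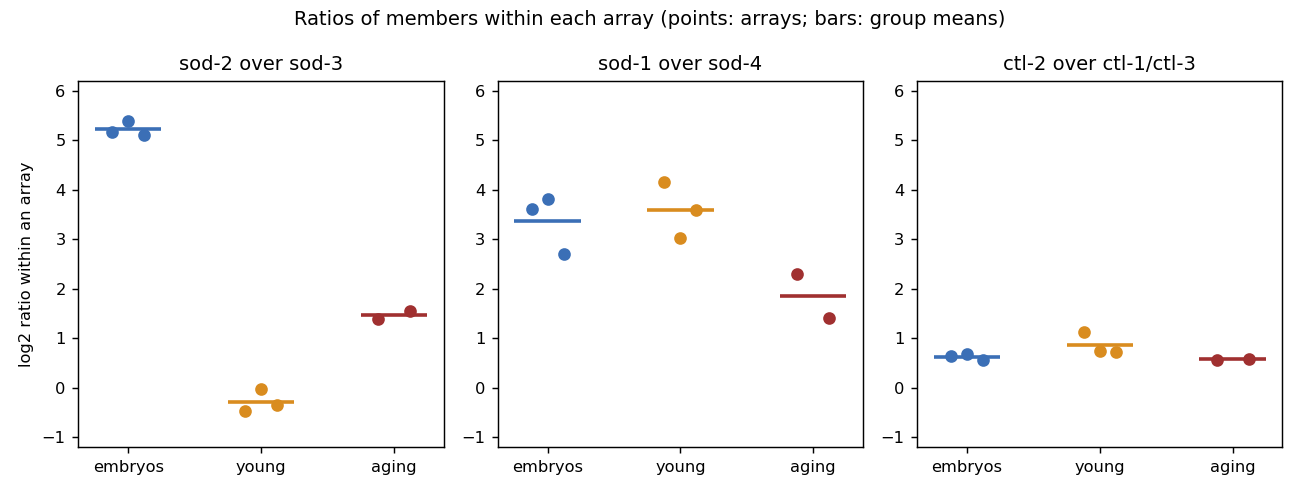
Log2 ratio of the intensities of 2 probe sets within each array, for sod-2 over sod-3, sod-1 over sod-4 and ctl-2 over ctl-1/ctl-3, in embryos, young adults and aging adults; points are arrays and bars group means. The sod-2 over sod-3 ratio separates all 3 groups, sod-1 over sod-4 is lowest on the aging arrays (1.41 and 2.30), and the catalase ratio stays between 0.55 and 1.12.

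The cytosolic gene sod-1 (C15F1.7), the main copper and zinc enzyme, was strongly detected everywhere. Its intensity was 1238, 1943 and 1213 in embryos, 2965, 2151 and 3726 in young adults, and 3094 and 2024 in aging adults. All embryo arrays lay below all adult arrays, and the adult groups overlapped in intensity. In array medians the levels were 23.9 ± 5.69 (SD, n = 3), 143 ± 35.4 (SD, n = 3) and 73.2 ± 15.2 (SD, n = 2). Embryos were 5.95-fold below young adults (log2 fold change -2.57, SE 0.27, limma adjusted p = 0.000243), and the log2 difference was smaller after quantile normalization (-0.95) and without rescaling (-1.01), both past the test. They were 3.08-fold below aging adults (limma adjusted p = 0.00473). The embryo difference from aging adults was not past the test after quantile normalization (-0.68, adjusted p = 0.0838) or without rescaling (-0.81, adjusted p = 0.12). The aging level was 1.93-fold below the young one in array medians, which missed the test (log2 fold change -0.95, 95% interval -1.66 to -0.24, limma adjusted p = 0.101), and the difference was -0.27 after quantile normalization and -0.20 without rescaling.

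The minor cytosolic gene sod-5 (ZK430.3) was at the edge of detection. Its intensity was 46.2, 42.6 and 37.8 in embryos, 1.23, 3.19 and 10.7 in young adults, and 1.43 and 13.2 in aging adults. Every embryo array was above its noise level and every adult array below. No fold is given, since the noise level of the adult arrays, at 0.911 to 1.68 array medians, exceeded the embryo values of 0.605 to 0.822. In adults sod-5 was not detectable, and a change between the adult groups could not be measured.

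The extracellular gene sod-4 (F55H2.1) was lowest in embryos and had its highest values in aging adults. Its intensity was 101, 138 and 186 in embryos, 166, 263 and 308 in young adults, and 629 and 760 in aging adults. The aging arrays were the highest, without overlap, while embryos and young adults overlapped in intensity. In array medians, where no groups overlapped, the levels were 2.31 ± 0.598 (SD, n = 3), 11.8 ± 2.78 (SD, n = 3) and 20.2 ± 4.50 (SD, n = 2). Embryos were 8.84-fold below aging adults (log2 fold change -3.14, SE 0.30, limma adjusted p = 0.00024) and 5.11-fold below young adults (limma adjusted p = 0.000376), and the latter call was lost without rescaling (-0.79, adjusted p = 0.0813). Between the adult groups the log2 difference was 0.79 (95% interval 0.08 to 1.5, limma adjusted p = 0.166), which missed the test. Without rescaling it was 1.54 and passed (adjusted p = 0.0324), as it did with values raised to the noise level (1.39, adjusted p = 0.0157). Within arrays the log2 ratio of sod-1 to sod-4 was 4.16, 3.03 and 3.59 in young adults and 2.30 and 1.41 in aging adults. That shift, of 3.34-fold without overlap, had an exact permutation p of 0.2, the smallest possible, and was 1.93-fold after quantile normalization. The ratio in embryos, at 3.61, 3.81 and 2.71, overlapped that in young adults, with a shift of -0.22 that became 1.28 after quantile normalization.

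The catalase genes rose between embryos and adults and did not change past the test between the adult ages. The intensity of ctl-2 (Y54G11A.5) was 1227, 1283 and 1107 in embryos, 2281, 2964 and 2239 in young adults, and 4300.5 and 3194 in aging adults. That of ctl-1/ctl-3 (Y54G11A.6 and Y54G11A.13) was 785, 805 and 757, then 1047, 1785 and 1356, then 2933 and 2132 in the same order. In intensity the 3 groups were apart for both probe sets, with the aging arrays highest. In array medians ctl-2 was at 19.8 ± 2.08 (SD, n = 3), 121 ± 19.8 (SD, n = 3) and 108 ± 12.8 (SD, n = 2), and ctl-1/ctl-3 at 12.9 ± 0.974 (SD, n = 3), 67.4 ± 16.0 (SD, n = 3) and 72.6 ± 9.76 (SD, n = 2). On this scale the adult groups overlapped and the embryos were lowest. Embryos were 6.08-fold below young adults for ctl-2 (limma adjusted p = 4.3e-05) and 5.16-fold below for ctl-1/ctl-3 (limma adjusted p = 8.6e-05). On the log2 scale these differences were -2.60 and -2.37, against -1.13 and -1.28 after quantile normalization and -1.04 and -0.80 without rescaling, all past the test. Against aging adults they were 5.42-fold below for ctl-2 (limma adjusted p = 0.000128) and 5.63-fold below for ctl-1/ctl-3 (limma adjusted p = 0.000161). These log2 differences, -2.44 and -2.49, were -1.65 and -1.89 after quantile normalization and -1.62 and -1.68 without rescaling.

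Between the adult groups the log2 difference was -0.16 for ctl-2 (95% interval -0.62 to 0.29, limma adjusted p = 0.665), and it turned to 0.51 after quantile normalization, 0.58 without rescaling and 0.43 with values raised to the noise level. For ctl-1/ctl-3 it was 0.13 (95% interval -0.38 to 0.64, limma adjusted p = 0.773). The ratio of ctl-2 to ctl-1/ctl-3 within an array stayed between 0.55 and 1.12 on the log2 scale over all 8 arrays. The shifts in this ratio were -0.29 from young to aging adults and -0.24 from young adults to embryos, each with the smallest p the design allows (exact permutation p = 0.2 and 0.1), and after quantile normalization -0.09 and 0.14. Whether probes of one catalase gene also catch transcripts of another was not tested.

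Differences can also be read relative to the median over all features on the median scale, which removes the shift that scaling by a constant brings. Quantile normalization and raising values to the noise level give other values. For aging against young adults these log2 differences were -3.22 for sod-3, -1.47 for sod-2, -0.93 for sod-1, -0.14 for ctl-2, 0.15 for ctl-1/ctl-3 and 0.81 for sod-4. With values raised to the noise level they were, in the same order, -2.51, -0.76, -0.22, 0.56, 0.85 and 1.52. For embryos against young adults the differences on the median scale were -5.25 for sod-3, -2.19 for ctl-2, -2.16 for sod-1, -1.95 for ctl-1/ctl-3, -1.94 for sod-4 and 0.26 for sod-2. With values raised to the noise level they were, in the same order, -3.69, -0.75, -0.72, -0.51, -0.50 and 1.70. In both comparisons sod-3 was the lowest, and in embryos sod-2 alone of the 6 features with a fold was above the all-feature median.

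**Figure D3:**
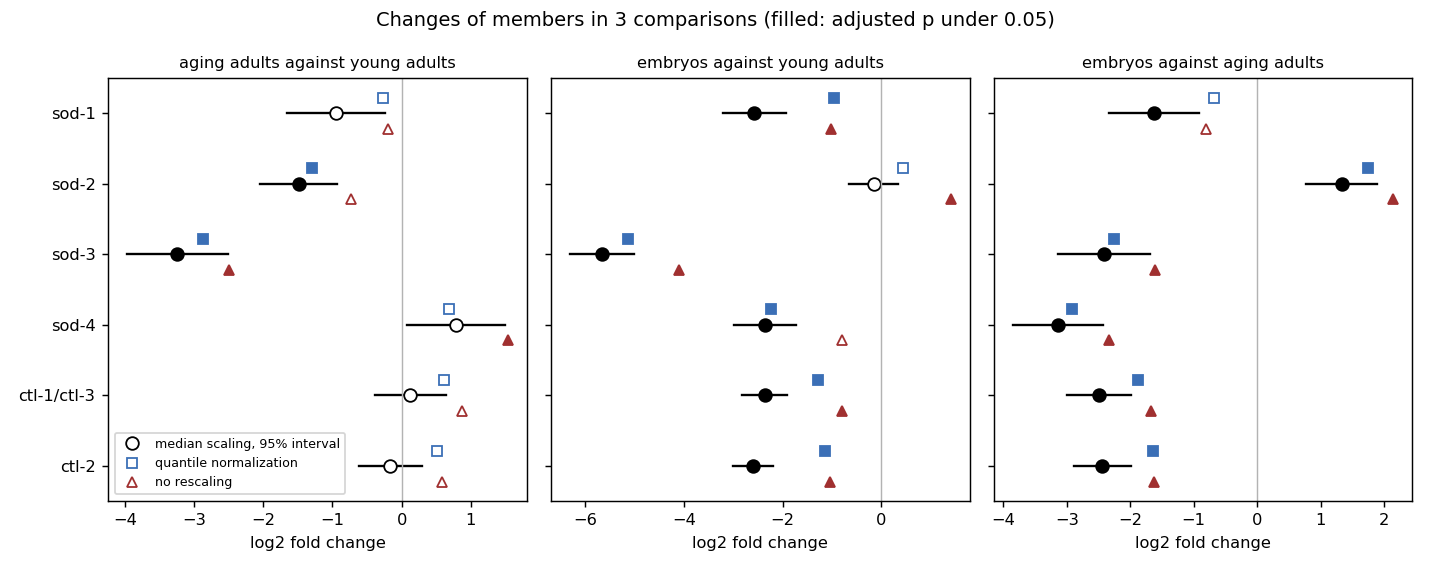
Log2 fold change of 6 features (sod-5 has no fold) in the 3 comparisons, after division by the array median (circles, with the 95% interval), after quantile normalization (squares) and without rescaling (triangles); filled symbols have an adjusted p under 0.05. For aging against young adults sod-3 is filled under all 3 scalings, sod-4 only without rescaling, and ctl-2 changes side.

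Across the 8 arrays, log2 levels of sod-1 and sod-3 had a Pearson r of 0.96, those of ctl-2 and ctl-1/ctl-3 of 0.99 and those of sod-4 and ctl-1/ctl-3 of 0.95. The level of sod-2 went with none of them, at 0.03 against sod-1, 0.20 against sod-3 and -0.54 against sod-4. These values describe 8 arrays that share their scaling and fall into 3 groups. Among 10752 genes searched, the pattern most like that of sod-3 was that of the cytosolic ribosomal protein genes rps-2, rpl-9 and rpl-36 (r 0.999, 0.998 and 0.997). Their changes were smaller: rps-2 was at 101 ± 5.63 array medians in embryos (SD, n = 3), 171 ± 0.235 in aging adults (SD, n = 2) and 320 ± 35.2 in young adults (SD, n = 3). The patterns closest to sod-4 were those of C29G2.6, slc-25A29 and nadk-1 (r 0.998, 0.995 and 0.995), and closest to ctl-2 were scav-1, nhr-80 and frm-4 (r 0.998, 0.998 and 0.997).

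Among other genes that remove hydrogen peroxide, some glutathione peroxidases fell with age and others did not. The genes gpx-1 and gpx-2, above noise on all 8 arrays, did not pass the test (log2 fold change -0.12 and -0.01, limma adjusted p = 0.886 and 0.987). In aging against young adults 4.41% of all features were lower and 2.75% higher, and the age counts of all lists stand beside these shares. The list of 11 measured glutathione peroxidase and peroxiredoxin genes had a median log2 fold change of -0.77 against -0.02 for all features. Of the 11, 4 were lower in aging than in young adults. They were the glutathione peroxidase genes gpx-6 (limma adjusted p = 0.00327), gpx-3 (3.87-fold lower, limma adjusted p = 0.00617) and gpx-5 (2.55-fold lower, limma adjusted p = 0.039), and prdx-3. The last encodes the mitochondrial peroxiredoxin (log2 fold change -2.1, limma adjusted p = 0.00342) and was named after its value was seen. The mean intensity of gpx-6 was 30.9 in aging and 95.2 in young adults. This gene was above noise on 7 of the 8 arrays. The noise levels of the aging arrays were 29.5 to 33.8, and no fold is given. The calls on gpx-6, gpx-3 and prdx-3 held under all 19 settings, and that on gpx-5 was lost under 11, no rescaling among them, and without any 1 of the embryo arrays, the first young adult array or either aging array. The 1 gene called higher, gpx-8, was above noise on no array. The gene gpx-7, above noise on 4 of the 8 arrays, did not pass the test (limma adjusted p = 0.0691), and no fold with age is given. It was at 2.14 ± 1.84 array medians in aging adults (SD, n = 2) against 8.17 ± 1.46 in young adults (SD, n = 3). In embryos 8 of the 11 were below young adults and 0 above, where 30.6% of all features were lower and 21.5% higher. Among the 8 were gpx-5, 12.7-fold lower, and gpx-7, at least 19.3-fold lower, and the list median was -1.6 against -0.42. With no rescaling 4 were below and 1 above, where 12.1% of all features were lower and 37.3% higher. The 8 include gpx-4, which was above noise on no array.

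Of 16 measured genes that make thioredoxin and glutathione or keep them reduced, 1 was called higher and 0 lower in aging adults in limma, and 2 had an unadjusted p under 0.05. The 1 gene was trx-3, an intestinal thioredoxin (limma adjusted p = 0.0213). It was at 17.2 ± 11.8 array medians (SD, n = 2) against 1.67 ± 0.985 in the young (SD, n = 3). The gene was above noise on 6 of the 8 arrays. Its mean intensity in young adults was 35.3, near their noise levels of 28.7 to 35, and no fold is given. Its aging arrays were far apart, and the call was lost under 5 of 19 settings, among them without the second aging array, the first or second young adult array or the first embryo array. In embryos 10 of 16 were below young adults on the median scale and 1 above, while with no rescaling 1 was below and 6 above. These and the following counts stand beside 30.6% of all features lower and 21.5% higher in embryos on the median scale, and 12.1% lower and 37.3% higher with no rescaling. On the median scale, those lower included sesn-1, the sestrin gene, by 3.81-fold, gcs-1, the rate-limiting enzyme of glutathione synthesis, by 3.53-fold and trx-2, the mitochondrial thioredoxin, by 2.82-fold. The 10 also include trx-5, which was above noise on no embryo array, 1 young adult array and 1 aging array.

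Genes for peroxisome assembly, the compartment of CTL-2, did not pass the test with age in either direction (0 of 11 in limma, 2 with an unadjusted p under 0.05), but with no rescaling 4 were higher, where 15.0% of all features were, and with values raised to the noise level 3 were called. With scaling by the 75th percentile, without the third embryo array or without the third young adult array, 1 was called. In embryos 7 of 11 were below young adults on the median scale, and with no rescaling 2 were below and 5 above. The clearest was prx-11, of the peroxisome division family, at 9.29-fold lower, followed by prx-2 at 4.70-fold. The import receptor prx-5 was 2.76-fold lower and prx-13, of the docking complex, 3.60-fold, all on the median scale.

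Enzymes that make superoxide or hydrogen peroxide were low in embryos, as the catalases were. Of 10 measured, 9 were below young adults in embryos and 1 above, with a list median of -3.05 against -0.42, and without rescaling 6 were below and 1 above. The D-aspartate oxidase gene ddo-2 was 23.4-fold lower and the peroxisomal acyl-CoA oxidase gene acox-1.5 15.5-fold lower. Their relatives ddo-3 and acox-1.2 were also called lower but were above noise on only 1 of 3 embryo arrays, and no fold is given. The mean intensity of ddo-3 was 24.0 in embryos and 2012 in young adults, and that of acox-1.2 was 20.7 and 374. The 1 call above, duox-2, was over noise on 1 array, and the call on ddo-1 rested on 2. In aging against young adults 1 was higher and 0 lower in limma (4 with an unadjusted p under 0.05). It was acox-1.1 (log2 fold change 1.54, limma adjusted p = 0.0359), named after its value was seen, and its call was lost under 10 of 19 settings, quantile normalization among them, and without any 1 of the embryo arrays, the third young adult array or either aging array.

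The genes for metal and heme supply serve the metal centres of these enzymes. In aging adults 1 of 11 was higher and 0 lower in limma (4 with an unadjusted p under 0.05): smf-1, a transporter of manganese and other divalent metals, at 2.16-fold (limma adjusted p = 0.0361). Its call was lost under 8 of 18 settings, among them without the first embryo array, the first or second young adult array or either aging array. In embryos 6 were below young adults and 0 above, and with no rescaling 1 was below and 5 above. Of the 6, smf-2 was above noise on no array and smf-3 on 1. The ferritin gene ftn-1 was 55.4-fold lower in embryos, ftn-2 5.47-fold, and the heme transporter gene hrg-1 4.10-fold. In young adults ftn-1 varied widely, at 70.9 ± 61.8 array medians (SD, n = 3).

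Of 14 genes of the insulin pathway and other regulators, 0 passed the test between adult ages (limma, 3 with an unadjusted p under 0.05), and with no rescaling 9 were higher, where 15.0% of all features were. The gene daf-16 differed by 0.15 on the log2 scale (limma adjusted p = 0.701). In embryos 5 were above and 6 below young adults, and without rescaling 8 were above and 2 below. The zinc finger factor gene pqm-1 was 12-fold lower in embryos. Above young adults there were hcf-1, whose product binds DAF-16, by at least 11.1-fold and the heat shock factor gene hsf-1 by at least 2.1-fold.

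**Figure D4:**
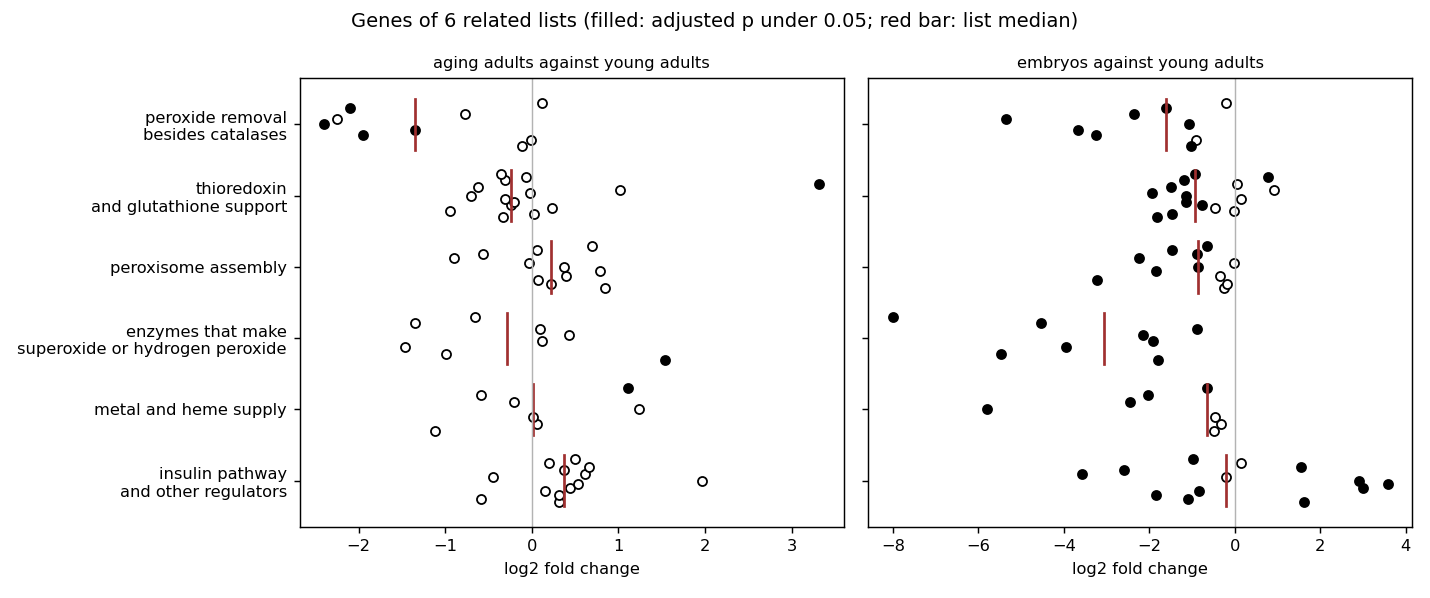
Log2 fold change of 63 of the 73 measured genes in 6 related lists (those above noise on at least 3 arrays) for aging against young adults (left) and embryos against young adults (right), after division by the array median; each point is a gene, filled at an adjusted p under 0.05, and the red bars are medians of the plotted genes. The peroxide removal list holds 4 filled points left of 0 for age, and the enzymes that make superoxide or hydrogen peroxide lie left of 0 in embryos.

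Tissue markers moved with the same groups, and their part in the results was not tested. The summed level of 4 intestinal markers was 159 to 247 array medians in young adults, 114 to 167 in aging adults and 49.8 to 58.8 in embryos, and that of 4 body wall muscle markers was 207 to 571, 134 to 159 and 59.3 to 75. All of these were above noise on every array. The order depends on the scaling, and the adult ranges of the intestinal markers overlapped on both scales. In summed intensity these markers reached their highest value in aging adults (4216 to 5415, against 3317 to 4716 in young adults). Embryos (3008 to 3681) overlapped young adults. The 4 neuronal markers summed to 63.9 to 95.7 array medians in young adults, 76.1 to 90.5 in aging adults and 34.9 to 39.6 in embryos. Of these 4, 2 were above noise on every young adult array and 3 on every aging array, and unc-31 was above noise on no adult array. The vitellogenin and adult collagen markers had summed levels of 1902 to 2285 array medians on the young adult arrays, above the 1010.1 to 1099 on the aging arrays. Their summed intensity was 41626 to 43608 on the former and 35647 to 37267 on the latter.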

How the data were processed

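Affymetrix intensity values for 22548 probe sets were deposited by the authors after scanning, GCOS and Rosetta Resolver. They are linear with negative values kept, and how the background was subtracted is not given in the sources used here. A table of the authors' own fold changes and p-values was not used. Values below 0.01 were set to 0.01, divided by the array median over all probe sets and taken to log2, and probe sets with the same annotation were condensed to their median. The annotation gives 20810 probe sets 1 gene, 843 several and 895 none, with symbols updated through Entrez identifiers and RefSeq names (WBcel235). All 8 arrays in 3 groups, from the sample labels, were fitted in limma 3.58.1 (R 4.3.3) with a variance trend. The noise level was the 95th percentile of the sizes of an array's negative values, and folds relative to a group wholly below it are written "at least". Named were every SOD and catalase gene, up to 4 genes of each list with the largest changes past the test against young adults and above noise on every array of the higher group, and the 3 genes most like each of the 3 features with the widest range, except 1 list gene that is not reported here. Further genes named for a noise limit, a single call or the lack of one (gpx-1, gpx-2, gpx-4, gpx-8, prdx-3, trx-5, duox-2, ddo-1, acox-1.1, smf-2, smf-3 and daf-16) were chosen after their values were seen. The members and lists were chosen with earlier results of these data known. The number of arrays limits the precision. Alternatives were other scalings, floors, filters, groups, probe sets and variance models, a replicate block, and each array left out.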

Additional observations from a re-analysis of the deposited data

How the results depend on the processing

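Of the SOD and catalase features, the number called between the adult ages went from 2 to 1 with only the adult groups in the fit and to 1 with the replicate number as a block, where sod-2 lost its call (-1.53, adjusted p = 0.0714). It was 1 to 2 with an array left out, being 1 when either aging array was left out. Deviations of same-numbered arrays from their group means had r of -0.07 to 0.14 over 5566 features above noise on all arrays. With means of so few arrays, these values cannot tell whether the numbers mark a shared batch. Under the block the calls over all features between the adult ages went from 516 higher and 829 lower to 178 and 353. Leaving out _s_at and _x_at probe sets, which removes sod-1 and both catalase probe sets, left 2 in embryos against young adults and 3 in embryos against aging adults. Directions that turned were those of ctl-2 in aging against young adults (0.51 after quantile normalization, 0.58 without rescaling, 0.43 with values raised to the noise level), of sod-2 in embryos against young adults (0.45, 1.41 and 0.44) and of ctl-1/ctl-3 in aging against young adults (range -0.0106 to 0.31 with an array left out, below 0 without the first young or the first aging array), and the cause was not tested. Over the 6 features with a fold and the settings run, 325 of 333 fold changes kept their direction. Many of these could not turn. Settings that change only the filter, the variance model or the arrays outside a comparison leave its fold change as it was. The gene sod-5, in the noise in adults, is not counted, and its fitted difference turned from -0.42 to 0.32 without rescaling in aging against young adults and from 2.04 to -0.53 with values raised to the noise level in embryos against young adults.

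Over all features in aging against young adults the share of calls that were higher was 38.4% after division by the median, 46.0% after quantile normalization, 88.5% without rescaling (2821 higher and 366 lower) and 84.8% with values raised to the noise level (2566 and 461). In embryos against young adults it was 41.2%, 49.1%, 75.5% and 29.5%, and in embryos against aging adults 39.2%, 48.6%, 64% and 23%. In the first comparison there were 259 higher and 249 lower with only the adult groups, 302 and 488 without a variance trend, 250 and 420 without the second aging array, 316 and 501 without the first embryo array, 335 and 527 without the second, and 1188 and 977 without the third young adult array. Between the adult ages, counts for the lists ranged over the settings from 3 to 6 for peroxide removal, 0 to 4 for peroxisome assembly and 0 to 9 for the regulators.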
